A study of Homo sapiens with 4 samples.

Results

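BIK, TP73, BRCA1, WIF1, ZEB1 and LMNB1 are 6 protein-coding genes of apoptosis, growth control, invasion and nuclear structure that were followed one by one as Star-PAP targets. They were chosen by name, and every Star-PAP HITS-CLIP summit inside each gene or within 5000 bp of either end was taken, on the hg19 genome with GENCODE annotation. These loci held 80 of 411400 summits in the control list, 129 of 325797 after Star-PAP depletion and 104 of 294402 after RBM10 depletion. The 6 genes are compared where needed with all 20163 annotated protein-coding genes.

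Star-PAP is a nuclear poly(A) polymerase that adds the poly(A) tail to a selected set of mRNAs, and RBM10 is an RNA-binding protein that works with it. Cleavage and tailing take place just past a poly(A) signal, most often the hexamer AAUAAA, near the end of the last exon, and Star-PAP is known for contacts with an AUA motif upstream of that signal. BIK is a BH3-only protein that promotes apoptosis. TP73 encodes p73, a transcription factor of the p53 family. BRCA1 acts in repair of DNA double-strand breaks by homologous recombination. WIF1 is a secreted inhibitor of WNT ligands. ZEB1 is a zinc finger repressor that drives epithelial-mesenchymal transition. LMNB1 encodes lamin B1, a filament protein of the nuclear lamina.

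HITS-CLIP crosslinks protein to RNA in living cells with ultraviolet light, pulls the protein down and sequences the RNA fragments bound to it. The cells were HEK 293, an established line from human embryonic kidney, irradiated at 400 mJ/cm2 and harvested 48 h after siRNA transfection. The labels name no knockdown for the control library, the siStar-PAP and siRBM10 libraries were from cells depleted of Star-PAP or RBM10, and all 3 were pulled down with an antibody to Star-PAP. The depletions cannot be checked from summits, which do not measure expression. A further sample, an IgG pull-down, was the reference against which peaks were called and has no summit list of its own here. Each condition was 1 library, so no difference between conditions has a replicate check, and the intervals below cover counting error only.

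A summit is the single base at which a peak was highest, and its score is the −log10 of the peak caller's p-value. The lists carry no strand, peak width or read number, so the depth behind each summit is unknown, and a summit in overlapping genes cannot be assigned to one of them. The scale of the scores was not the same in the 3 libraries. In the control list 259946 summits carried the same score, 1.33, while the commonest score was 2.92 in siStar-PAP (74386 summits) and 3.25 in siRBM10 (66822 summits). Within the 6 loci 45 of 80 control summits had the commonest score, against 13 of 129 in siStar-PAP and 9 of 104 in siRBM10. Scores were therefore read within a library.

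The ends of the 6 reference transcripts carry the same poly(A) hexamer. They are printed here because 3′-end processing was among the questions of the study. It placed TP73 and ZEB1 among mRNAs that rose after Star-PAP depletion, and for that set it proposes that Star-PAP bound to coding sequence lowers mRNA stability. Each line gives the hg19 position on the gene's own strand in DNA letters, with the signal in capitals.
BIK, chr22:43525685-43525714 (+): gcaggagtgctcAATAAAatgttggtttcc
TP73, chr1:3652732-3652761 (+): tttttgtaacatAATAAAgtgtatgttcca
BRCA1, chr17:41196320-41196349 (−): gttaacactgcaAATAAActtggtagcaaa
WIF1, chr12:65444415-65444444 (−): ttgtatgtataaAATAAAggtgctgcttta
ZEB1, chr10:31818699-31818728 (+): cataatagacacAATAAAttatgccttctt
LMNB1, chr5:126172676-126172705 (+): gtgacattaacaAATAAAaaagctctttta
The signal ended 16 bases before the annotated end in BIK, TP73 and ZEB1, 19 in LMNB1, 20 in BRCA1 and 21 in WIF1.

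A selection of the summits that fell in an exon or reached the highest scores is shown next as 29-nt windows on the gene strand, with the summit at base 15 and any ATA in capitals.
WIF1 3′-UTR, control, 65444692: tatttagatgtttgttacatttttaaaaa
WIF1 3′-UTR, siStar-PAP, 65445108: acatctgaaacgttttaagttacaccaag
ZEB1 coding exon 7, control, 31810713: cacaatcgtggccattgctgaccagaaca
TP73 3′-UTR, siRBM10, 3651391: cgcttgtgggggcagcaggaacggggctg
TP73 intron 1, control, 3596294: ccgtctctctttgtccctgtctctctctg
TP73 intron 1, siRBM10, 3575439: gtcATAtttaggggtggcgtattctggtc
BRCA1 coding exon 10, siStar-PAP, 41243631: tgaattggaagacttgactgcaaATAcaa
BRCA1 coding exon 10, siRBM10, 41243647: tttcttcacagtgcagtgaattggaagac
BRCA1 3′-UTR, siRBM10, 41196553: ctttctttgaggtgatttttttcctttgc
LMNB1 coding exon 1, siRBM10, 126113339: ggctggcggtgtacatcgacaaggtgcgc
LMNB1 5′-UTR, siRBM10, 126112931: gcattttcccgcgtgcgtgtgtgagtggg
Both BRCA1 exon 10 windows share the run tgaattggaagac, since their summits lie 16 bp apart. None of the windows at the 5 summits in a 3′-UTR held an ATA.

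All 6 loci held summits in all 3 libraries. Among all protein-coding loci 82.5% did so in control, 93.9% in siStar-PAP and 93.3% in siRBM10, so a summit at the locus is the rule for a gene of any kind. BRCA1 was the richest locus after either depletion and ZEB1 the richest in control. The order of the libraries differed between genes. The GC-rich loci of BIK and TP73, together with BRCA1 and LMNB1, held fewest summits in control. The AT-rich locus of ZEB1 held most in control.

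BIK held 3 summits in control, 11 in siStar-PAP and 6 in siRBM10. TP73 held 4, 23 and 18 in the same order, and BRCA1 held 14, 57 and 45. For these 3 genes siStar-PAP was highest and control lowest. WIF1 held 12, 4 and 12, with the low count in siStar-PAP. ZEB1 held 36, 18 and 10. LMNB1 held 11, 16 and 13, so it too was highest in siStar-PAP and lowest in control. The exact Poisson 95% intervals of control and siStar-PAP did not overlap for TP73 (1.09 to 10.2 against 14.6 to 34.5) or BRCA1 (7.65 to 23.5 against 43.2 to 73.9). They overlapped for BIK, WIF1, ZEB1 and LMNB1.

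**Figure D1:**
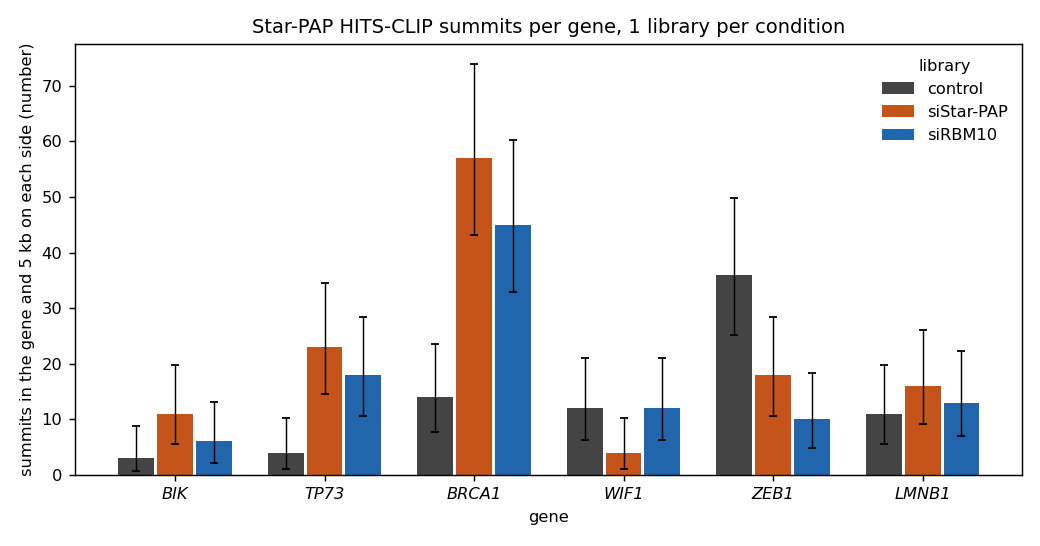
Number of summits in each gene and 5 kb on each side (y axis) for the 6 genes (x axis). Bars are the counts of the control, siStar-PAP and siRBM10 libraries (1 library each) and error bars the exact Poisson 95% intervals. BRCA1 reached 57 and 45 summits after the depletions against 14 in control, and ZEB1 had 36 in control against 18 and 10.

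As ratios to control, siStar-PAP counts were 5.75 for TP73 (exact 95% interval 1.96 to 22.9) and 4.07 for BRCA1 (2.24 to 7.91). The ratio for BIK was 3.67 (0.969 to 20.5), and for LMNB1 it was 1.45 (0.634 to 3.47), both with intervals that include 1. ZEB1 had a ratio of 0.5 (0.267 to 0.904), and WIF1 one of 0.333 (0.0784 to 1.1). For siRBM10 the ratios were 4.50 for TP73 (1.48 to 18.3), 3.21 for BRCA1 (1.73 to 6.34) and 0.278 for ZEB1 (0.123 to 0.571). The siRBM10 ratios of BIK (2), LMNB1 (1.18) and WIF1 (1) had intervals that include 1. Both depletion ratios were taken against the same control library. Over the 6 loci together, siStar-PAP held 1.61 times the control number (1.21 to 2.16) and siRBM10 1.30 times (0.962 to 1.76). BRCA1 supplied 57 of the 129 siStar-PAP and 45 of the 104 siRBM10 summits, against 14 of the 80 in control. Densities in the 6 loci were 1.27 per 10 kb in control, 2.04 in siStar-PAP and 1.65 in siRBM10. Summed over all protein-coding loci they were 1.30, 1.45 and 1.27.

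At least 2-fold more summits in siStar-PAP than in control were found for 3 of 6 genes (BIK, TP73 and BRCA1) and at least 2-fold fewer for 2 (WIF1 and ZEB1). Among all 11193 genes with at least 10 summits in the pair of libraries, 42.1% had at least 2-fold more and 18.6% at least 2-fold fewer. In siRBM10, 2 of the 5 genes with at least 10 summits (TP73 and BRCA1) had at least 2-fold more and 1 (ZEB1) at least 2-fold fewer. Of the 10412 genes counted that way, 35.4% and 23.5% did so. The 6 genes thus lay in both directions, as did the genes at large.

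In siStar-PAP the ratios of the 2 most AT-rich loci were below 1 and those of the 3 most GC-rich loci above 3. GC content was 36.0% for ZEB1, 38.6% for WIF1, 42.6% for LMNB1, 44.2% for BRCA1, 54.2% for BIK and 58.9% for TP73. Over all protein-coding loci, the ratio of summed summit density in siStar-PAP to control was 0.480 below 40% GC, 1.07 from 40 to 45%, 2.73 from 45 to 50% and 5.62 from 50% upward. For siRBM10 the same classes gave 0.432, 0.993, 2.36 and 4.53. ZEB1 in siStar-PAP (0.5) and TP73 in both libraries (5.75 and 4.50) were close to the values of their GC class. BRCA1 (4.07 and 3.21) was above its class (1.07 and 0.993), with intervals that do not reach those values. Its GC content is just under 45%, and the values of the next class (2.73 and 2.36) lie inside its intervals. Over all of chromosome 17 the ratios were 2.05 and 1.78, below the siStar-PAP interval and inside that of siRBM10. In siRBM10, ZEB1 (0.278), BIK (2) and WIF1 (1) differed in value from their classes (0.432, 4.53 and 0.432), with intervals that include the class values. The part of GC content in the counts was not tested.

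**Figure D2:**
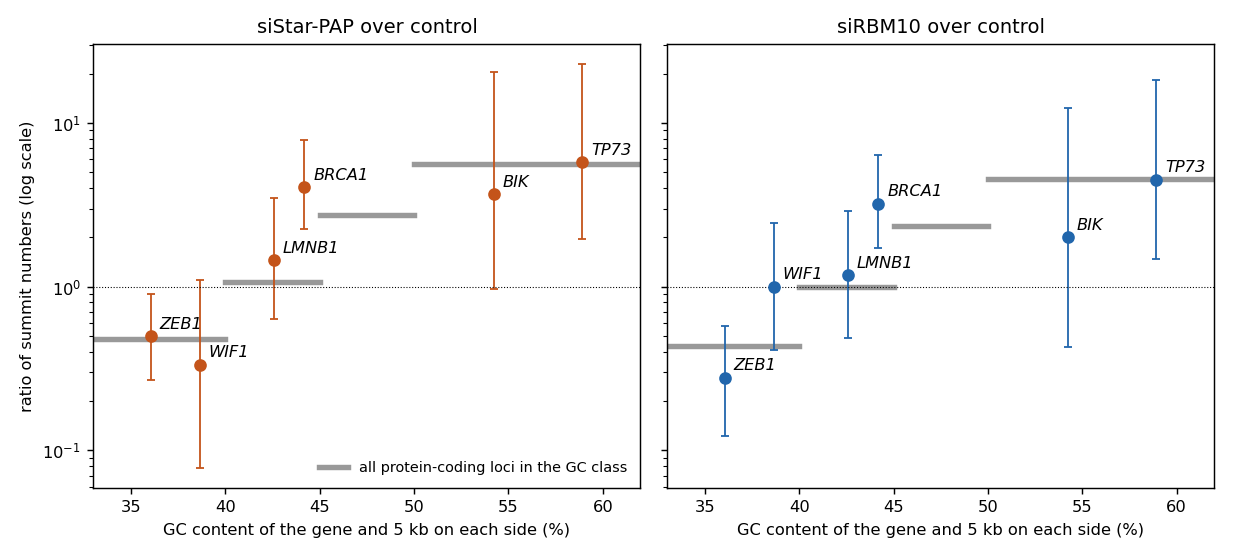
Ratio of summit numbers to control (y axis, log scale) against GC content of the locus (x axis, %) for siStar-PAP (left) and siRBM10 (right). Points are the 6 genes with exact 95% intervals for counting error, and grey lines give the ratio of summed density over all protein-coding loci in each GC class. TP73 lies near the grey line in both panels and ZEB1 in the left panel, BRCA1 lies above its class in both, and in the right panel BIK lies below its class (2 against 4.53) and WIF1 above (1 against 0.432).

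The threshold on the score changed these counts unequally. At p of at most 0.01, ZEB1 kept 7 summits in control, 17 in siStar-PAP and 10 in siRBM10, so control became the lowest library in place of the highest. The commonest control score, 1.33, lies below this cut, while those of siStar-PAP (2.92) and siRBM10 (3.25) lie above it. The cut thus removes every control summit at that score, so the order in ZEB1 after it is not a comparison of the libraries. WIF1 then had 4, 4 and 12, and BIK had 3, 2 and 4. The order of TP73 (4, 12 and 9), BRCA1 (11, 43 and 39) and LMNB1 (4, 15 and 12) stayed as it was. The 294402 highest summits were also taken from each list, with ties settled by a seeded random draw. In control the cut fell among the summits tied at 1.33, so part of the control summits kept was drawn at random. This left BIK at 3, 7 and 6, BRCA1 at 13, 46 and 45, WIF1 at 10, 4 and 12, ZEB1 at 22, 18 and 10 and LMNB1 at 9, 15 and 13. TP73 then held 4, 14 and 18, so siRBM10 replaced siStar-PAP as its highest library, and siRBM10 was also highest in WIF1.

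BIK lies on chromosome 22 from 43506756 to 43525718 on the plus strand, with 5 exons over 18963 bp. None of its 20 summits lay in an exon. In control the summits were at 43510625 in intron 1 (score 2.90), at 43524435 in intron 3 (3.75), 66 bp from a splice site, and at 43530667 past the gene (2.21). The highest siStar-PAP summit, at 43522285 in intron 2, scored 3.31, and the highest in siRBM10, at 43520275 in intron 2, scored 2.36. siStar-PAP and siRBM10 each had a summit in intron 4, the last, at 43525098 and 43525143, which are 45 bp apart (scores 1.58 and 1.90) and 620 and 575 bp before the transcript end. The nearest control summit to the end was 1283 bp before it, and no control summit in BIK was within 500 bp of one from another library. The downstream flank overlaps MCAT, a gene on the opposite strand.

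TP73 lies on chromosome 1 from 3569080 to 3652765 on the plus strand. Its 4 control summits included the highest score of any of the 6 loci, 11.0, in intron 1 at 3596294, in a window made mostly of C and T. The nearest siStar-PAP summit was 814 bp away (score 3.32) and the nearest in siRBM10 was 2907 bp away. The highest siRBM10 score, 6.31, was also in intron 1, at 3575439. The highest of siStar-PAP, 4.64, was in intron 3 at 3609829. The single exon summit was in siRBM10, in the 3′-UTR at 3651391 (score 2.46), 1374 bp before the transcript end. Past the gene all 3 libraries had a summit within 214 bp of each other, at 3656497 in control, 3656301 in siStar-PAP and 3656283 in siRBM10. Their windows are built from the same pair of runs, ccgcacaatcaac and gctgatgatct, and are shown for that reason.
TP73 downstream, control, 3656497: ccgcacaatcaacccggctgatgatctct
TP73 downstream, siStar-PAP, 3656301: gctgatgatctctaacccgcacaatcaac
TP73 downstream, siRBM10, 3656283: acccgcacaatcaacccggctgatgatct
The control and siRBM10 windows each occurred 2 times in the genome. This site also lies in TP73-AS1, an antisense gene, and without strand the summits cannot be given to either.

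BRCA1 lies on chromosome 17 on the minus strand, and its annotated span, 41196312 to 41322262, reaches far upstream of the reference transcript, which starts at 41277381. The stretch upstream overlaps NBR2 (1 control, 12 siStar-PAP and 11 siRBM10 summits) and the non-coding RNA ENSG00000267002 (4, 10 and 9). All 14 control summits were intronic, with the highest, 5.51, in intron 3 at 41262113, where siStar-PAP had a summit 73 bp away scoring 4.06. After Star-PAP depletion 9 of 57 summits were exonic. Of these, 5 were in coding sequence, 4 of them in exon 10, the long exon that encodes most of the central part of the protein, at 41243631 (score 4.28), 41244691 (2.30), 41244957 (1.5) and 41246531 (2.92). The fifth was in exon 15 at 41223140 (2.64). The others were in the 3′-UTR at 41197015 (3.67), in a 5′-UTR of another transcript at 41276915 (3.23) and in non-coding exons at 41200487 (2.90) and 41201721 (2.06). A further summit lay 973 bp past the transcript end at 41195339 (1.5).

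After RBM10 depletion 8 of 45 BRCA1 summits were exonic. Coding sequence held 3, all in exon 10, at 41243647 (4.48), 41244008 (2.77) and 41245348 (3.07). The 3′-UTR held 1 at 41196553 (4.22), 241 bp before the transcript end. The non-coding exons held 4, at 41199773 (3.09), 41202407 (2.69), 41257427 (2.48) and 41258094 (2.48). Past the transcript end the nearest summit was at 41195926 (1.62), 386 bp away. Exon 10 therefore carried summits of both depleted libraries and none of the control list. The nearest control summit, at 41247126 in intron 9, was 248 bp from the exon and 595 bp from the siStar-PAP summit at 41246531. Control summits were also sparser over the whole locus, at 1.03 per 10 kb against 4.19 in siStar-PAP and 3.31 in siRBM10. The highest siRBM10 scores, 5.20, were in intron 7 at 41250164 and 41251389, and the highest siStar-PAP score, 4.98, was in intron 14 at 41224514.

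Much of BRCA1 is repeated sequence. Of its 29-nt windows 32.3% occurred more than once in the genome, against 6.98% in TP73, 7.56% in WIF1, 13.8% in ZEB1, 21.7% in BIK and 23.9% in LMNB1. In control 9 of the 14 BRCA1 summits lay on such a window, in siStar-PAP 25 of 57 and in siRBM10 17 of 45. Of the exon summits of the 6 genes, 8 of 10 in siStar-PAP and 10 of 12 in siRBM10 were on windows found once, and the rest were all in BRCA1. The non-coding exon windows at 41200487 in siStar-PAP and at 41202407 and 41258094 in siRBM10 occurred 46666, 5267 and 7799 times, and the siStar-PAP summit in the BRCA1 3′-UTR was also on a repeated window. The exon 10 windows and the siRBM10 3′-UTR window at 41196553 each occurred once. With windows found once alone, BRCA1 held 5 control, 32 siStar-PAP and 28 siRBM10 summits, so its order of libraries did not depend on repeated windows. The control and siStar-PAP sites at 41262113 and 41262186 were on windows that occurred 153 and 69518 times.

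WIF1 lies on chromosome 12 from 65444406 to 65515085 on the minus strand. It was the only one of the 6 genes with a control summit within 500 bp of its transcript end. That summit was in the 3′-UTR at 65444692, 286 bp before the end, and scored 1.30, the lowest score of any control summit in the list. siStar-PAP had a 3′-UTR summit at 65445108, 702 bp before the end and 416 bp from the control one, with a score of 2.64. The nearest siRBM10 summit, at 65442711, was 1695 bp past the end. The highest control score, 3.36, was in intron 3 at 65466782, with a siStar-PAP summit 390 bp away. The highest siRBM10 score, 5.20, was in intron 2 at 65487069 and again at 65508915. The highest of siStar-PAP, 4.34, was upstream of the gene at 65516458. A site in intron 2 had a summit in each library, at 65510130, 65510145 and 65510583. The 3′-UTR also lies within the non-coding RNA ENSG00000198671 on the other strand.

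ZEB1 lies on chromosome 10 from 31607424 to 31818742 on the plus strand, the longest of the 6 at 211319 bp. Of its 36 control summits 29 carried the commonest control score of 1.33. The highest control score, 5.77, was in intron 4 at 31793233, with a siStar-PAP summit 92 bp away (2.92). The highest siStar-PAP score, 4.70, was in intron 2 at 31756250, and the highest of siRBM10, 5.20, was upstream of the gene at 31602487. A single summit was exonic, the control summit in coding exon 7 at 31810713 (2.28), and the nearest summits of siStar-PAP and siRBM10 were 4098 and 4231 bp from it. Intron 8, the last, had a summit in each library, at 31815216 in control, 31814811 in siStar-PAP and 31814944 in siRBM10. Their windows are shown because 3 ATA triplets fall in them, 2 of them in siStar-PAP.
ZEB1 intron 8, control, 31815216: taaaaagggaccttgtagtgATAatgaac
ZEB1 intron 8, siStar-PAP, 31814811: gcaaagttaaATAttagcaaATAtcaaag
ZEB1 intron 8, siRBM10, 31814944: ctgactatgatcagttgttgccagtcctt
The nearest summit to the transcript end was 1907 bp away in control, 2856 bp in siStar-PAP and 3788 bp in siRBM10.

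LMNB1 lies on chromosome 5 from 126112315 to 126172712 on the plus strand. All 11 control and all 16 siStar-PAP summits were intronic, while 3 of 13 siRBM10 summits were exonic. These were in the 5′-UTR at 126112931 (score 1.98), 103 bp past the transcription start, in coding exon 1 at 126113339 (2.81) and in a non-coding exon at 126147429 (3.25). The last was 99 bp from a control summit in intron 4 (1.33). The highest scores were 4.09 in control at 126131432, 4.28 in siStar-PAP at 126164554 and 5.20 in siRBM10 at 126162789. The site of the highest control score was shared by siStar-PAP at 159 bp and siRBM10 at 250 bp, and its control window occurred 14930 times in the genome. The site at 126162710, 126162490 and 126162789 was shared by all 3 as well, on a control window that occurred once. No library had a summit within 5000 bp of the transcript end.

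**Figure D3:**
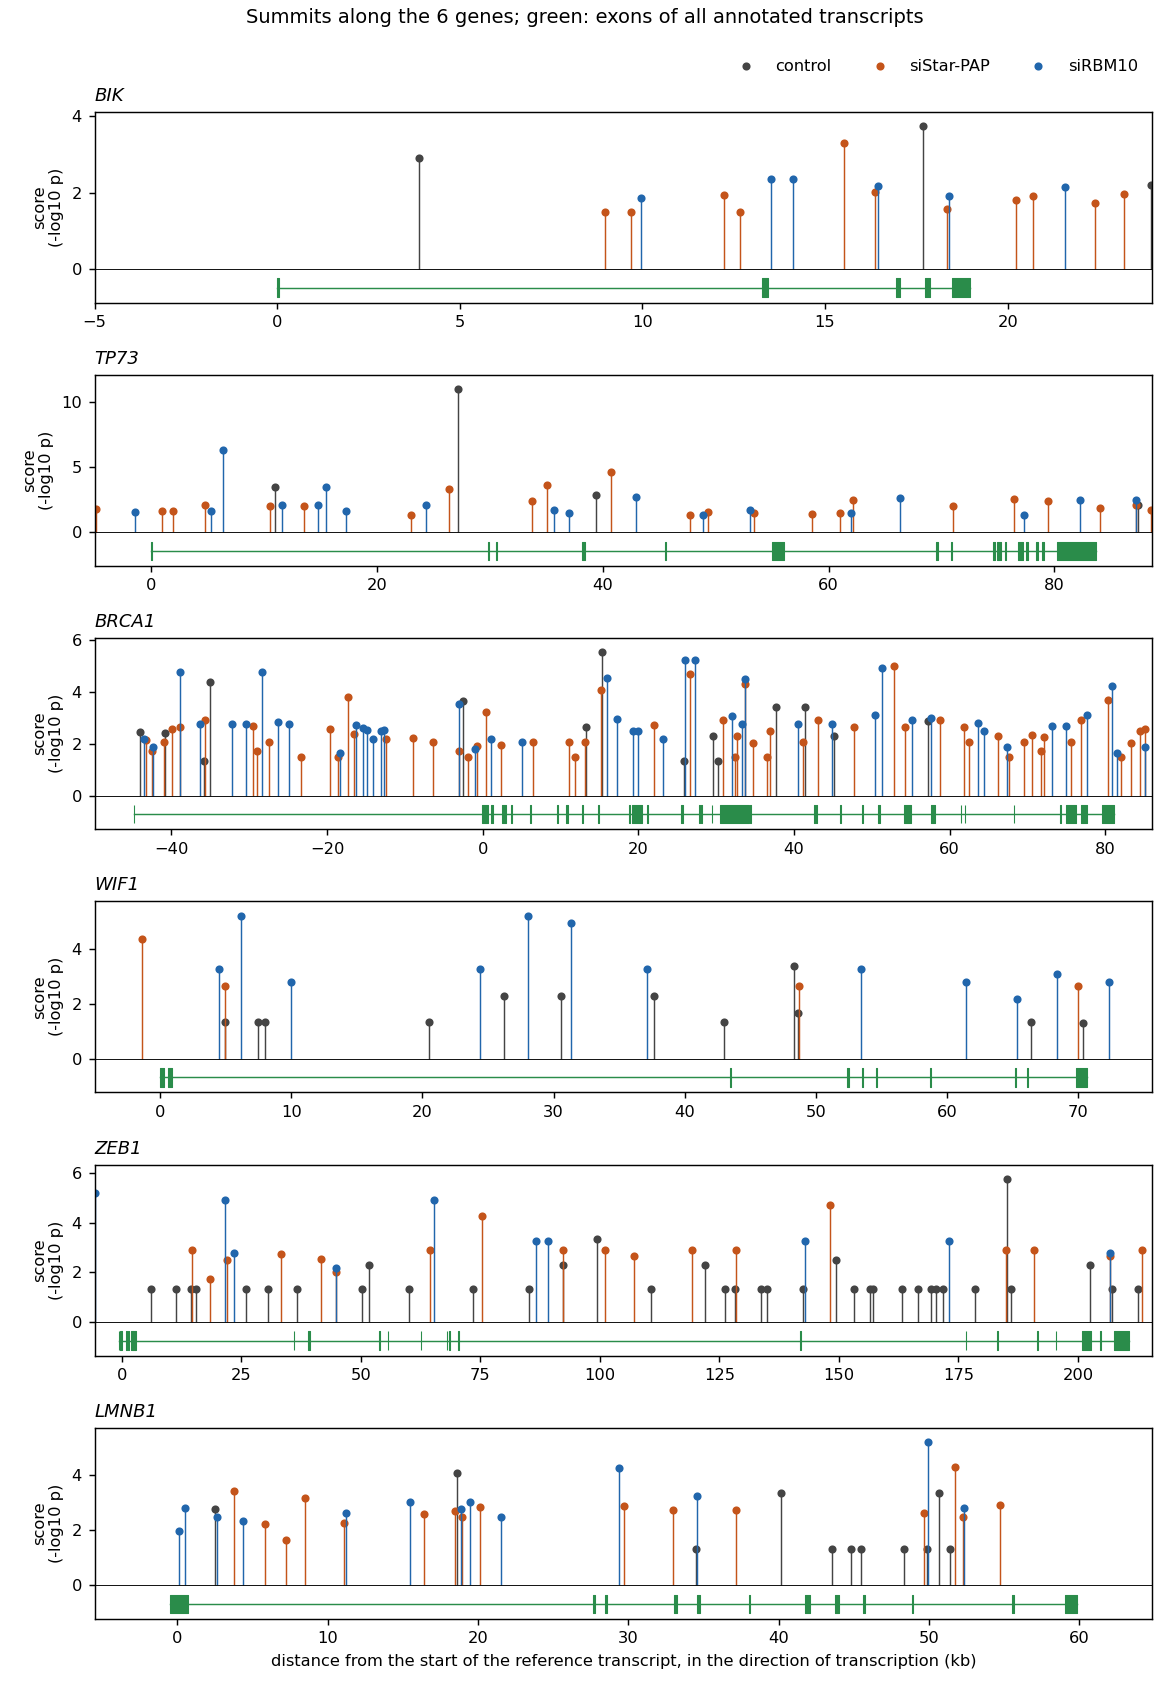
Summits of the control, siStar-PAP and siRBM10 libraries along each gene and 5 kb on each side, 1 panel per gene. The x axis is the distance from the start of the reference transcript in kb, the y axis the score (−log10 p), and green boxes are exons of all annotated transcripts. Most summits stand over introns, and the cluster over the long coding exon of BRCA1 has siStar-PAP and siRBM10 summits and no control summit. The whole BRCA1 locus held 14 control summits against 57 in siStar-PAP and 45 in siRBM10.

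In exons, control had summits in 2 of 6 genes (WIF1 and ZEB1), siStar-PAP in 2 (WIF1 and BRCA1) and siRBM10 in 3 (TP73, BRCA1 and LMNB1). Among all protein-coding genes the shares were 35.4%, 58.3% and 55.8%. An exon summit in control and none in siStar-PAP was found for 1 gene, ZEB1 (11.4% of all genes), and the reverse for 1 gene, BRCA1 (34.3%). An exon summit in control and none in siRBM10 was found for WIF1 and ZEB1 (12.4% of all genes), and the reverse for TP73, BRCA1 and LMNB1 (32.8%). These counts of 1 to 3 genes are too few to be set apart from those shares.

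Exons made up 36268 of the bases of the 6 loci. The density of summits in exons was 0.551 per 10 kb in control (exact Poisson 95% interval 0.0668 to 1.99), 2.76 in siStar-PAP (1.32 to 5.07) and 3.31 in siRBM10 (1.71 to 5.78). Outside exons it was 1.31 (1.04 to 1.64), 2 (1.66 to 2.39) and 1.55 (1.25 to 1.90) per 10 kb. In each library the interval in exons overlapped that outside them. BRCA1 alone gave 9 of the 10 siStar-PAP and 8 of the 12 siRBM10 exon summits. With an exon widened by 100 bp, control summits counted in 5 of 6 genes, siStar-PAP in 4 and siRBM10 in 5.

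Summits of different libraries rarely shared a position. Of the 80 control summits 20 (25.0%, exact binomial 95% interval 16 to 35.9) had a siStar-PAP summit at 500 bp or less, against 10.9% of the whole control list. With siRBM10 it was 14 (17.5%, interval 9.91 to 27.6) against 8.90%. Of the 129 siStar-PAP summits 20 (15.5%) lay near a control summit and 30 (23.3%) near a siRBM10 summit, against 13.9% and 16.4% of the list. Of the 104 siRBM10 summits 14 (13.5%) were near control and 30 (28.8%) near siStar-PAP, against 12.5% and 18.2%. The densities of summits in these loci differ from those of the genome, and their part in these shares was not tested.

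Few control summits lay near others from both remaining libraries. The 6 that did were 1 in TP73, 1 in BRCA1 near 41279975, 1 in WIF1, 1 in ZEB1 and 2 in LMNB1. No such site was in BIK, and none of the 6 was in an exon of a member.

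The study tested Star-PAP association with BIK, TP73, WIF1 and ZEB1 by RNA immunoprecipitation followed by quantitative PCR, comparing 3′-UTR with coding products in TP73 and WIF1, and repeated it for BRCA1 and LMNB1 after RBM10 depletion. It measured mRNA levels of TP73, WIF1, ZEB1 and LMNB1, uncleaved RNA of TP73, WIF1 and ZEB1, and the 3′ end of BIK by RACE. It reports association lost after Star-PAP depletion for BIK and ZEB1, and after RBM10 depletion for BRCA1 and LMNB1. Binding to target mRNAs was also lost with an RNA-binding mutant of Star-PAP. Association was higher on the 3′-UTR for WIF1 and on the coding region for TP73. After Star-PAP depletion it reports higher mRNA for TP73 and ZEB1, more uncleaved RNA with less mRNA for WIF1, and loss of the BIK RACE product. For the set of mRNAs that rose, it reports that cleavage and polyadenylation were unaffected. LMNB1 mRNA fell after RBM10 depletion. The measured values are not used here, and the positions of the PCR products set the summits beside these assays. In TP73 the 3′-UTR product (3650529 to 3650750) had its nearest siRBM10 summit at 641 bp, siStar-PAP at 1984 bp and control at 5747 bp. The TP73 coding product (3649324 to 3649527) had siStar-PAP at 779 bp, siRBM10 at 1864 bp and control at 6970 bp. Neither TP73 product was nearer to a control summit than to one of the depletions.

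In WIF1 one of the 3′-UTR primers matched the genome just past the annotated end (65444380 to 65444399), 293 bp from the control summit, 709 bp from siStar-PAP and 1669 bp from siRBM10. The WIF1 coding product (65462558 to 65462679, exon 4) had siRBM10 nearest at 927 bp, then siStar-PAP at 3713 bp and control at 3774 bp. The nearness of control to the 3′-UTR primer rests on the 1 summit at 65444692, with the lowest score of its list, which is lost at p of at most 0.01 and among the 294402 highest summits.

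The ZEB1 coding product (31816054 to 31816172) lay in the last exon, with a control summit at 838 bp, siRBM10 at 1110 bp and siStar-PAP at 1243 bp, all in intron 8. The ZEB1 3′-UTR product of the cleavage assay (31818124 to 31818301) was 2338, 3287 and 3180 bp from control, siStar-PAP and siRBM10. The BIK coding product (43520060 to 43520160, exon 2) was 115 bp from a siRBM10 summit in intron 2, 647 bp from siStar-PAP and 4275 bp from control. The BIK primer used for RACE (43525440) had siRBM10 at 297 bp, siStar-PAP at 342 bp and control at 1005 bp. For LMNB1 the expression product ran from exon 2 to exon 3, with summits at 832 bp in siRBM10, 1179 bp in siStar-PAP and 5979 bp in control. The BRCA1 primers lay in exons 5 and 7. The genomic stretch between them held an intronic summit of both siStar-PAP and siRBM10, with control 307 bp away. Those introns are absent from a product of spliced mRNA.

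**Figure D4:**
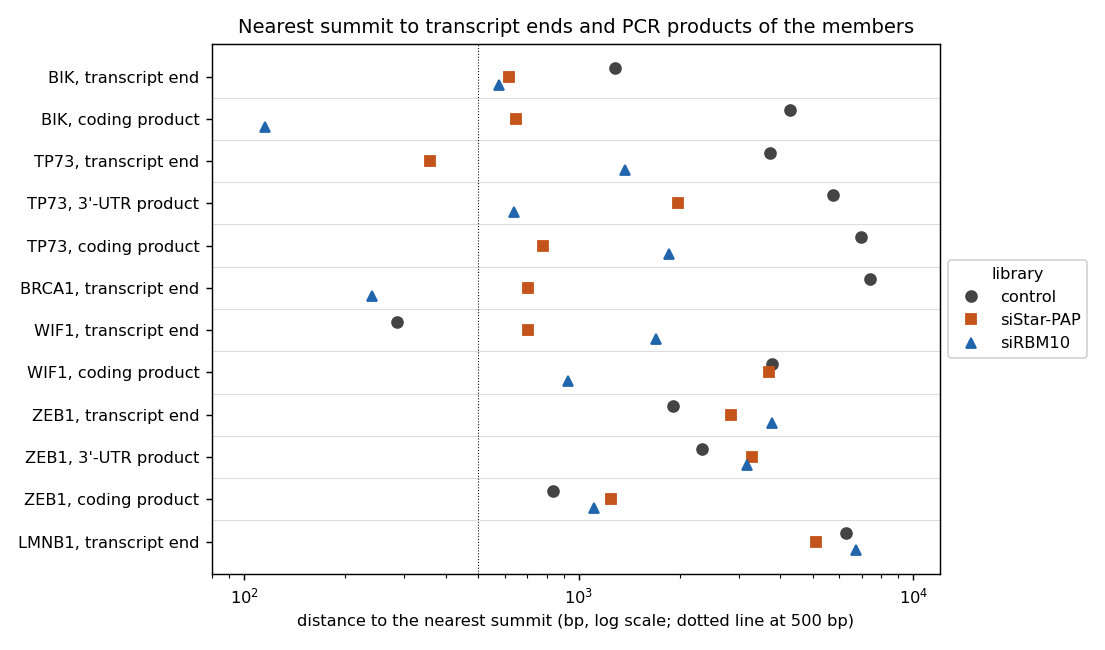
Distance from transcript ends and PCR products of the members (rows) to the nearest summit of the control, siStar-PAP and siRBM10 libraries (x axis, bp, log scale). The dotted line is at 500 bp. Within that distance of a transcript end were control in WIF1 (286 bp), siStar-PAP in TP73 (358 bp) and siRBM10 in BRCA1 (241 bp).

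A summit within 500 bp of the annotated transcript end was found for 1 of 6 genes in each library, and the gene differed each time. In control it was WIF1, in siStar-PAP TP73, where the summit at 3653123 (score 1.88) was 358 bp past the end, and in siRBM10 BRCA1. The TP73 summit also lies in the antisense gene TP73-AS1 and cannot be given to either gene. Among 18922 protein-coding genes with a reference transcript the shares were 8.24%, 17.1% and 15.4%. The nearest control summit to the end was 7403 bp past it in BRCA1 and 6296 bp past it in LMNB1.

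The portion held here of the study's table of target mRNAs names BRCA1, LMNB1, WIF1 and ZEB1, each at a place where the control list has a summit. These summits were in intron 15 of BRCA1 at 41220197 (score 2.86), intron 1 of LMNB1 at 126115316 (2.77), the 3′-UTR of WIF1 at 65444692 (1.30) and intron 1 of ZEB1 at 31614275 (1.33). The nearest siStar-PAP summits were 1557, 1294, 416 and 8466 bp away, in the same order. The nearest siRBM10 summits were 388, 167, 1971 and 11788 bp away. WIF1 was therefore listed by a summit that had a siStar-PAP summit within 500 bp, and BRCA1 and LMNB1 by one that had a siRBM10 summit within it. A separate table of the study, of mRNAs undetected after RBM10 depletion, names BIK and WIF1 in the portion held here. The siRBM10 list has 6 summits at the BIK locus and 12 at the WIF1 locus, none of them in an exon. The study's targets had to pass a minimum of read tags per cluster and be absent after Star-PAP depletion. Summits without read numbers cannot be filtered that way, so these summits and the study's tables do not measure the same thing.

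The AUA motif was read as ATA on the gene strand in the 29-nt window of each summit. In control 27 of 80 windows held it (33.8%), in siStar-PAP 26 of 129 (20.2%) and in siRBM10 19 of 104 (18.3%). Of all 29-nt windows of the 6 loci 33.5% did. By gene, all windows ranged from 11.1% in TP73 to 47.2% in ZEB1, in the order of their AT content. In ZEB1 18 of 36 control windows held it (50.0%), 7 of 18 in siStar-PAP and 4 of 10 in siRBM10. In TP73 none of the 4 control and none of the 23 siStar-PAP windows did, and 1 of 18 in siRBM10. In the order control, siStar-PAP and siRBM10, BRCA1 had 4 of 14, 14 of 57 and 5 of 45. LMNB1 had 4 of 11, 3 of 16 and 4 of 13, and BIK 0 of 3, 1 of 11 and 0 of 6. WIF1 rose, with 1 of 12, 1 of 4 and 5 of 12. ZEB1 gave 36 of the 80 control summits and 18 of the 129 in siStar-PAP, so the pooled shares depend on which genes supply the summits. A match in these letters is a description of the window and not a binding site.

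Over all 6 loci 21 of 80 control summits (26.2%), 35 of 129 siStar-PAP summits (27.1%) and 28 of 104 siRBM10 summits (26.9%) lay on a window that occurs again elsewhere in the genome, against 17.5% of all windows. The share was similar in the 3 libraries. The authors kept uniquely mapped reads, and the length of the reads behind each summit was not used here.

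The families of the 6 genes were read the same way, from lists of 81 genes in 6 groups, all matched by symbol. In the BCL2 family, the regulators of mitochondrial apoptosis to which BIK belongs, control had an exon summit in 6 of 19 genes, siStar-PAP in 13 and siRBM10 in 10, beside shares of 35.4%, 58.3% and 55.8% among all genes. These counts are near the shares of all genes. BCL2 itself, the founding inhibitor of apoptosis, was the family member with exon summits in all 3 libraries (1, 4 and 1). In the p53 family and its regulators control had them in 4 of 11, siStar-PAP in 10 and siRBM10 in all 11. TP63, the paralog of TP73, had 3, 1 and 1, and the damage kinase ATM had 5, 9 and 11. TP53BP1 and TP53BP2 also had exon summits in every library. In both families the depletions covered more genes than control, as among all genes, and the members are few.

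In the homologous recombination pathway around BRCA1, 8 of 14 genes had an exon summit in control, 11 in siStar-PAP and 10 in siRBM10. BRCA2, a partner of BRCA1 in this pathway, had 4, 3 and 1, and the helicase gene BRIP1 had 2, 3 and 3. In the nuclear lamina group of LMNB1 the numbers were 7, 11 and 12 of 14, with TMPO at 2 in each library and SUN2, which links the lamina to the cytoskeleton, at 1, 7 and 7. The shares among all genes were 35.4%, 58.3% and 55.8% in the same order. Groups of 14 genes are small, and their difference from those shares was not tested.

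The remaining groups had at most 1 more gene after depletion than in control. Among the EMT transcription factors of ZEB1 the numbers were 5, 4 and 4 of 10, with ZEB2, its paralog, at 1, 3 and 2. Among the secreted WNT antagonists of WIF1 they were 4, 5 and 0 of 13. Beside both groups stand the shares of 35.4%, 58.3% and 55.8% among all genes. No exon of those 13 genes held a siRBM10 summit, although all 13 loci held at least 1 in that library. The family lists differ in gene length and GC content, whose part in these counts was not tested.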

How the data were processed

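HITS-CLIP was carried out by the authors in 4 HEK 293 samples, 1 library each, and per the labels and the study's methods reads were trimmed with Cutadapt (1.14 in the submitters' processing notes), mapped to hg19 with BWA (0.7.12), kept if uniquely mapped, collapsed and used to call peaks with MACS2 against IgG. The deposited lists hold summits of 1 bp scored as −log10 of a MACS2 p-value of at most 0.05. The labels name a lipid reagent for transfection and the methods calcium phosphate.

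Summits were assigned with GENCODE release 44 lifted to GRCh37, in the order coding sequence, 3′-UTR, 5′-UTR, non-coding exon, intron and flank over all transcripts. Exon numbers, transcript starts and ends are those of the MANE reference transcript. Intervals are exact 95% (Poisson for counts, binomial for shares and ratios), and no test between conditions was possible with 1 library each. Sequences were read from GRCh37 with pysam 0.24.0, and windows of 29 nt were counted in chromosomes 1 to 22, X and Y on both strands. Primers were read from text made from page images, so only those matching the genome exactly and at 1 place were used, and none is printed. The sequence of 1 summit window is not reported here. The counting steps were tested on simulated positions. Every exon summit, every summit within 1000 bp of a reference transcript end and the highest score of each gene and library were named. Of the family genes with exon summits in all 3 libraries, only a selection was named. The members and lists were chosen with earlier results of these data known.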

Additional observations from a re-analysis of the deposited data

How the results depend on the processing

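Of 94 values recomputed under alternatives, 49 stayed close to the reported ones and 45 moved; the cause was not tested beyond each alternative's own construction. No paired analysis was possible because each condition was 1 library.

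At p of at most 0.01 the 6 loci held 33 control summits instead of 80 (0.523 per 10 kb), and siStar-PAP had 1.47 per 10 kb instead of 2.04. Control then had 1 exon summit in 1 gene (that of WIF1 was lost, here and below), and 1 gene had an exon summit in control and none in siRBM10. Taking 294402 summits of highest score from each list, with ties drawn at random, gave 0.967 per 10 kb in control and 1.65 in siStar-PAP. Control then had 1 exon summit in 1 gene, and 1 gene had an exon summit in control and none in siRBM10. With windows found once in the genome, an alternative chosen after seeing the data, the densities were 0.935, 1.49 and 1.20 per 10 kb in control, siStar-PAP and siRBM10.

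With exons widened by 100 bp, control had 5 exon summits in 5 genes, siStar-PAP summits were in 4 genes, and siRBM10 had 19 in 5 genes. Then 2 genes had an exon summit in control and none in siStar-PAP, and 1 in control and none in siRBM10. With the transcript of longest coding sequence, siStar-PAP and siRBM10 had 6 exon summits each.

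Sharing followed the distance allowed. Control summits near siStar-PAP numbered 6 at 100 bp and 32 at 1000 bp, and near siRBM10 2, 7 and 22 at 100, 250 and 1000 bp. siStar-PAP summits near control numbered 6 and 31 at 100 and 1000 bp, and near siRBM10 10, 17 and 61 at 100, 250 and 1000 bp. siRBM10 summits near control numbered 2, 7 and 22, and near siStar-PAP 10, 17 and 53. At p of at most 0.01 the 6 numbers were 10, 8, 11, 18, 8 and 18 in the same order. Depth behind a summit is unknown, so absence from a list is not absence of binding.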

Other observations

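Several summits of the 6 loci also lay in other genes. The overlap with NBR2 upstream of BRCA1 held 1 control summit, 12 of siStar-PAP and 11 of siRBM10, and that with TP73-AS3 held 1, 2 and 3. MCAT, past the end of BIK, had 1, 2 and 1 in the flank, and ZEB1-AS1, which starts head to head with ZEB1, had a single siRBM10 summit. LMNB1-DT, the divergent transcript of LMNB1, had none within 5000 bp.

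The following sites were chosen after their values were seen. In ZEB1, intron 1 had siStar-PAP and siRBM10 summits 16 bp apart, at 31652849 and 31652833, inside the pseudogene ENSG00000285781, and the nearest control summit was 5617 bp from the former. In TP73 the depletions shared a site of intron 4 at 3631219 and 3631050, where the nearest control summits were 22718 and 22549 bp away.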
